A study of Homo sapiens with 12 samples.

Results

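The mRNA levels of 45 genes of the DNA replication machinery and its nucleotide supply were measured in BEAS-2B cells, a line of human bronchial epithelial cells immortalised in culture. They were chosen by name from what their products do, with earlier results of these data known. They comprised the 6 MCM2-7 helicase subunits, 6 factors that switch the helicase on, 8 origin licensing factors and 10 polymerase and primase subunits. A further 8 were genes of the sliding clamp, its loader and Okazaki fragment joining. The rest were 3 subunits of the single-strand binding protein RPA and 4 enzymes of nucleotide supply. All 45 were among the 78932 genes of the kava and vehicle table and the 35697 genes of the siRNA table, and all 45 were abundant enough to be tested in both.

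All 12 libraries came from cells cultured with 0.25 µM K2Cr2O7, which supplies hexavalent chromium, over 20 weeks, so no library shows cells without chromium. The 3 kava libraries were made from cells that also received 25 µg/ml kava, an extract of a Pacific pepper plant, and the 3 vehicle libraries from cells that received 0.05% DMSO. The 3 SNRPA1 siRNA libraries and the 3 control siRNA libraries were made from vehicle-treated chromium cells, 48 h after transfection with pooled siRNAs targeting SNRPA1 or with non-targeting siRNA, each at 100 nM. SNRPA1 is the gene of a core protein of U2, the spliceosome particle that binds the branch site of introns. The labels do not say whether the 3 libraries of a group were separate cultures, so p-values measure only the spread between these libraries. Of 4 keratins of simple epithelia, KRT8 and KRT18 were at 502 ± 13.7 and 396 ± 0.511 TPM with kava, against 583 ± 14.6 and 426 ± 8.52 TPM with vehicle (SD, n = 3 each). Both were lower with kava (limma adjusted p = 0.00395 and 0.0354). KRT7 was higher, at 406 ± 19.0 TPM with kava and 192 ± 2.85 TPM with vehicle (limma adjusted p = 7.16e-06). KRT19 was lower, at 0.705 ± 0.0309 TPM with kava and 23.5 ± 1.19 TPM with vehicle (limma adjusted p = 6.83e-07). CDH1 and EPCAM, which mark most epithelia, stayed under 3 TPM in each of these 6 libraries. The part of these marker changes in the results was not tested. The 5 listed markers of differentiated airway cells summed to 0.00217 to 0.279 TPM with kava and 0 to 0.245 TPM with vehicle, and SCGB1A1 was listed at 0 throughout. Of the 6 fibroblast genes, THY1 (397 ± 15.8 TPM with kava, 388 ± 14.2 TPM with vehicle) and PDGFRB (18.3 ± 1.54 and 15.9 ± 0.840 TPM) were the 2 that reached 1 TPM, while COL3A1 and DCN were under 0.1 TPM.

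Replication starts at origins bound by the origin recognition complex, ORC. CDC6 and CDT1 load the ring-shaped MCM2-7 helicase there during G1, and in S phase CDC45 and the GINS complex join the ring to make it an active helicase. Polymerase alpha with primase lays down primers, polymerase epsilon extends the leading strand and polymerase delta the lagging strand, both held to DNA by the clamp PCNA, which the RFC complex loads. Many of these genes are transcribed under E2F factors around the G1 to S transition, so their mRNA level in a culture depends on how many cells are in those phases as well as on the level in each cell. In these bulk libraries, fewer cells in S phase and less mRNA per cell cannot be told apart.

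Promoters were compared because such genes are often expressed together. A promoter window, 250 bases before to 50 bases after the start, was matched by symbol for 39 of the 45 genes in RefSeq on GRCh38.p14. E2F-type sites were searched as TTTCCCGC, TTTGGCGC, TTTCGCGC and TTTGCCGC on both strands, and overlapping matches were allowed. At least 1 site lay in 18 of the 39 windows (46.2%), against 908 of all 27305 RefSeq windows of the same length (3.33%). The CCAAT box, CCAAT on either strand, lay in 22 of 39 (56.4%, against 35.7% of all windows), and the GC box GGGCGG in 27 of 39 (69.2%, against 44.6%). The element TTTGAA lay in 1 of 39 (2.56%, against 15.4%). Shown here are the windows of POLE2, CDC6 and MCM7, the 3 genes that were lower in both comparisons below, and of TYMS, which had the second largest fall with kava. They lie at chr14:49688165-49688464 on the minus strand, chr17:40287629-40287928 on the plus strand, chr7:100101348-100101647 on the minus strand and chr18:657403-657702 on the plus strand. Capitals mark matches to the E2F-type strings given above and no other forms. TTTGGCGG, which was not searched, lies unmarked in the CDC6 window. The site begins at -5 in POLE2, 7 in CDC6, -187 and -9 in MCM7 and -39 in TYMS, counted from the start. A match describes letters in these windows and says nothing of binding.
POLE2: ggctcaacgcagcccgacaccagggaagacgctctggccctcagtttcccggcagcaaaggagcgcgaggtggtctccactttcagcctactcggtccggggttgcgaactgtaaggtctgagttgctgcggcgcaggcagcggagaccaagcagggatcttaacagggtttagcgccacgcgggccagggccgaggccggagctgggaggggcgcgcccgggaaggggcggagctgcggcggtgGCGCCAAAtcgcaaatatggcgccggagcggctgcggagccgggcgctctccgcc
CDC6: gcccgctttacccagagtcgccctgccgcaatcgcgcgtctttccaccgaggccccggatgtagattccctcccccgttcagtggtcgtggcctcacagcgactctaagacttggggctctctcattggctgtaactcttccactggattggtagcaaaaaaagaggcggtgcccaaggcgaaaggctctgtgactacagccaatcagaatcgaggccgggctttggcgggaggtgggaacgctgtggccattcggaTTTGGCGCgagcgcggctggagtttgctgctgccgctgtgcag
MCM7: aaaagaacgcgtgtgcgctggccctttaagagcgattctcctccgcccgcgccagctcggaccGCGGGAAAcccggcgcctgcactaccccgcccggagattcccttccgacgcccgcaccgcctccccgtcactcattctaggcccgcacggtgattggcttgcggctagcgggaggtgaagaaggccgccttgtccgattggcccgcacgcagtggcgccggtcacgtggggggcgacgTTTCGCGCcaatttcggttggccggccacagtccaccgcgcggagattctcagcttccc
TYMS: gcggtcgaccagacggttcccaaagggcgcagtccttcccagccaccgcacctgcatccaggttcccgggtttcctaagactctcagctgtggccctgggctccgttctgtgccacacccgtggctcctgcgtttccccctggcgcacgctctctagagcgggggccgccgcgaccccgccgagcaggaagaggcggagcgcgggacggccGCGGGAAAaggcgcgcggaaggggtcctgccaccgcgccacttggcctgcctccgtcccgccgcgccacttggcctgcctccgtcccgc

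Most of the 45 genes stood slightly lower in kava libraries than in vehicle libraries. With kava, 16 fell, 3 rose and 26 did not pass the test (limma on log2(TPM + 1), Benjamini-Hochberg adjusted p under 0.05 over 13866 genes). TPM scales each gene's value by length and each library to the same sum. Of all tested genes, 31.9% changed, 15.6% lower and 16.3% higher. The median log2 fold change was -0.097 over the 45 genes and -0.014 over all tested genes. Of the 45 values 36 were negative, against 7338 of 13866 over all tested genes. In 24 genes every kava value lay below every vehicle value and in 5 every kava value lay above, together 64.4% of the genes, against 24.6%, 22.6% and together 47.2% of all tested genes. Summed over the 45 genes, kava libraries held 4724, 4770 and 4638 TPM, against 4964, 4948 and 4993 TPM in vehicle libraries. SNRPA1 itself stood at 124, 127 and 130.1 TPM with kava and 153, 152 and 147 TPM with vehicle (log2 fold change -0.24 ± 0.036 SE, limma adjusted p = 0.00227).

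**Figure D1:**
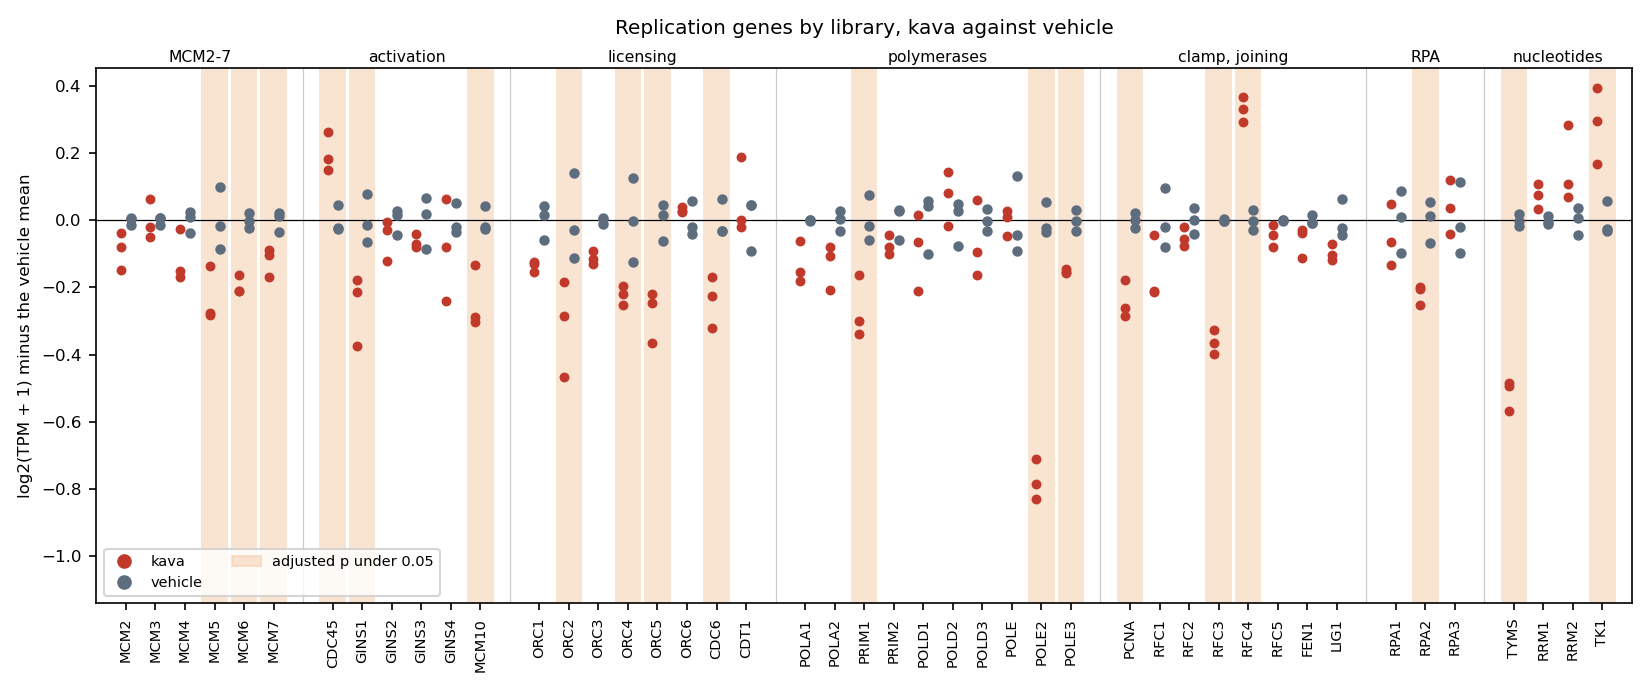
Each gene's value in every kava library (red) and vehicle library (grey), as log2(TPM + 1) minus the vehicle mean, by role; shading marks limma adjusted p under 0.05. POLE2 and TYMS lie lowest, RFC4 and TK1 highest, and most of the others lie a little below 0.

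POLE2, the second subunit of the leading-strand polymerase epsilon, fell most. It was at 17.2, 18.1 and 16.6 TPM in kava libraries, against 29.6, 31.6 and 29.8 TPM in vehicle libraries. All 3 kava values were far below the lowest vehicle value, and the log2 fold change was -0.78 ± 0.052 (limma adjusted p = 6.08e-05), 0.570 of the vehicle level. Of the other polymerase epsilon subunits among the 45 genes, POLE3 fell and POLE did not pass. The histone-fold subunit POLE3 fell by 0.15 ± 0.034, with 97.5, 96.6 and 96.9 TPM in kava libraries against 108, 106 and 110.2 TPM in vehicle libraries (limma adjusted p = 0.0138, 0.0525 without kava replicate 2 and 0.0541 without vehicle replicate 3). The catalytic subunit POLE had 42.9 ± 1.17 TPM with kava and 43.1 ± 3.64 TPM with vehicle (limma adjusted p = 0.983).

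Of polymerase alpha-primase, the small primase subunit PRIM1, which synthesises the RNA primer, fell to 46.6, 45.3 and 51.3 TPM in kava libraries, against 55.2, 56.9 and 60.8 TPM in vehicle libraries. The groups did not overlap, and the log2 fold change was -0.27 ± 0.060 (limma adjusted p = 0.0129). POLA1, POLA2 and PRIM2 had log2 fold changes between -0.13 and -0.074 and none passed (limma adjusted p = 0.075, 0.0673 and 0.25). The 3 subunits of the lagging-strand polymerase delta among the 45 genes, POLD1, POLD2 and POLD3, had changes of -0.086, 0.070 and -0.065, and their groups overlapped. The small subunits POLD4 and POLE4, which stood in the list of fork genes instead, had changes of -0.0050 and -0.19, also with overlapping groups (limma adjusted p = 0.948 and 0.189).

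The clamp loader held changes in both directions. RFC3 fell to 64.7, 63.0 and 61.5 TPM in kava libraries, against 81.3, 81.7 and 81.3 TPM in vehicle libraries (log2 fold change -0.36 ± 0.036, limma adjusted p = 0.000368). RFC4, another subunit of the same complex, rose to 162, 157 and 153 TPM with kava, against 125, 122 and 128 TPM with vehicle (0.33 ± 0.036, limma adjusted p = 0.000569). Neither pair of groups overlapped. RFC1, RFC2 and RFC5 had changes of -0.16, -0.050 and -0.046 and did not pass. Thus 2 subunits of one complex differed from vehicle in opposite directions by similar amounts.

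PCNA, the clamp itself and the most abundant of the 45 transcripts, fell to 528, 499 and 489.8 TPM in kava libraries, against 588, 597 and 606 TPM in vehicle libraries. Every kava value lay below the vehicle range (log2 fold change -0.24 ± 0.038, limma adjusted p = 0.003). The PCNA pseudogenes in the table were listed at 0 TPM. The flap nuclease FEN1 and the ligase LIG1, which finish Okazaki fragments, had changes of -0.059 and -0.097 and did not pass.

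Of the helicase subunits, MCM5, MCM6 and MCM7 fell. MCM7 had 253, 250 and 239 TPM in kava libraries, against 271, 273 and 262 TPM in vehicle libraries, groups that did not overlap although they lay close (log2 fold change -0.12 ± 0.037, limma adjusted p = 0.0425). This call was lost without any 1 of kava replicates 2 and 3 and vehicle replicates 1, 2 and 3 (limma adjusted p = 0.0895, 0.076, 0.126, 0.135 and 0.0625). MCM6 fell by 0.19 ± 0.036, with 70.8 ± 1.38 TPM with kava and 81.2 ± 1.26 TPM with vehicle (limma adjusted p = 0.00576). MCM5 fell by 0.23 ± 0.061 (limma adjusted p = 0.0248), and its adjusted p lay between 0.0569 and 0.0746 without kava replicate 1 or 3 or vehicle replicate 1 or 3. MCM2, MCM3 and MCM4 had changes of -0.088, -0.0024 and -0.12 and did not pass, so the 6 subunits of one ring spanned 0.23 on the log2 scale.

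Among the factors that activate the helicase, CDC45 rose and GINS1 and MCM10 fell. CDC45 stood at 75.2, 81.4 and 76.9 TPM in kava libraries, against 66.6, 66.5 and 69.9 TPM in vehicle libraries. All kava values were above all vehicle values (log2 fold change 0.20 ± 0.044, limma adjusted p = 0.013, and 0.051 without vehicle replicate 1 and without vehicle replicate 2). GINS1, a subunit of the GINS complex, had 34.4, 38.7 and 39.6 TPM with kava and 43.0, 47.5 and 44.5 TPM with vehicle, also without overlap (-0.26 ± 0.065, limma adjusted p = 0.0216, 0.0741 without vehicle replicate 2 and 0.058 without vehicle replicate 3). GINS2, GINS3 and GINS4 had changes of -0.051, -0.063 and -0.085, with overlapping groups. MCM10, which helps the helicase leave the origin, had 34.2, 33.8 and 38.2 TPM with kava and 43.3, 41.2 and 41.4 TPM with vehicle. Its kava values all lay below its vehicle values (-0.24 ± 0.057, limma adjusted p = 0.0159, 0.0593 without kava replicate 2 and 0.0608 without vehicle replicate 1).

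Of the licensing factors, CDC6, ORC2, ORC4 and ORC5 fell. CDC6 had 114, 122 and 126 TPM in kava libraries, against 149, 139 and 139 TPM in vehicle libraries, with no overlap (log2 fold change -0.24 ± 0.050, limma adjusted p = 0.0102). ORC5 had 26.9, 26.4 and 24.2 TPM with kava and 30.2, 32.6 and 31.9 TPM with vehicle (-0.28 ± 0.056, limma adjusted p = 0.00861). These 2 calls held in all 12 alternative settings. ORC2 had 26.1, 29.8 and 32.0 TPM with kava and 40.4, 33.7 and 35.7 TPM with vehicle (-0.31 ± 0.090, limma adjusted p = 0.0346). Its highest kava value lay just under its lowest vehicle value, and the adjusted p lay between 0.0754 and 0.108 without kava replicate 1 or 2 or vehicle replicate 1 or 3. ORC4 fell by 0.22 ± 0.065 (limma adjusted p = 0.0362), and its adjusted p lay between 0.0517 and 0.107 without kava replicate 1, 2 or 3 or vehicle replicate 2 or 3. ORC1, ORC3, ORC6 and CDT1 had changes of -0.14, -0.11, 0.032 and 0.056 and did not pass.

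Of RPA, which coats single-stranded DNA, the middle subunit RPA2 fell to 94.2, 93.9 and 90.8 TPM in kava libraries, against 103, 109 and 113 TPM in vehicle libraries (log2 fold change -0.22 ± 0.042, limma adjusted p = 0.00728). The groups did not overlap. RPA1 and RPA3 had changes of -0.049 and 0.040, with overlapping groups.

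The nucleotide enzymes divided. TYMS, thymidylate synthase, which makes dTMP de novo, fell to 176, 175 and 166 TPM in kava libraries, against 247, 244 and 250 TPM in vehicle libraries (log2 fold change -0.52 ± 0.036, limma adjusted p = 7.31e-05). TK1, thymidine kinase, which makes dTMP by salvage, rose to 357, 333 and 305 TPM with kava, against 267, 283 and 265 TPM with vehicle (0.29 ± 0.060, limma adjusted p = 0.0101). Neither overlapped between groups, and the enzymes of both routes to dTMP thus changed in opposite directions. The ribonucleotide reductase subunits RRM1 and RRM2 were at 218 ± 5.81 and 355 ± 28.9 TPM with kava, against 208 ± 1.77 and 318 ± 9.06 TPM with vehicle. Both had kava values above all vehicle values but did not pass (0.072 and 0.15, limma adjusted p = 0.146 and 0.0849). TYMS shares 967 exon bases with ENOSF1 on the opposite strand, and whether the counting used strand is not given in the sources used here. ENOSF1 also fell, with 34.7 TPM with kava and 50.7 TPM with vehicle (-0.53, limma adjusted p = 0.000245), and reads from the shared bases cannot be assigned to either gene without strand.

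**Figure D2:**
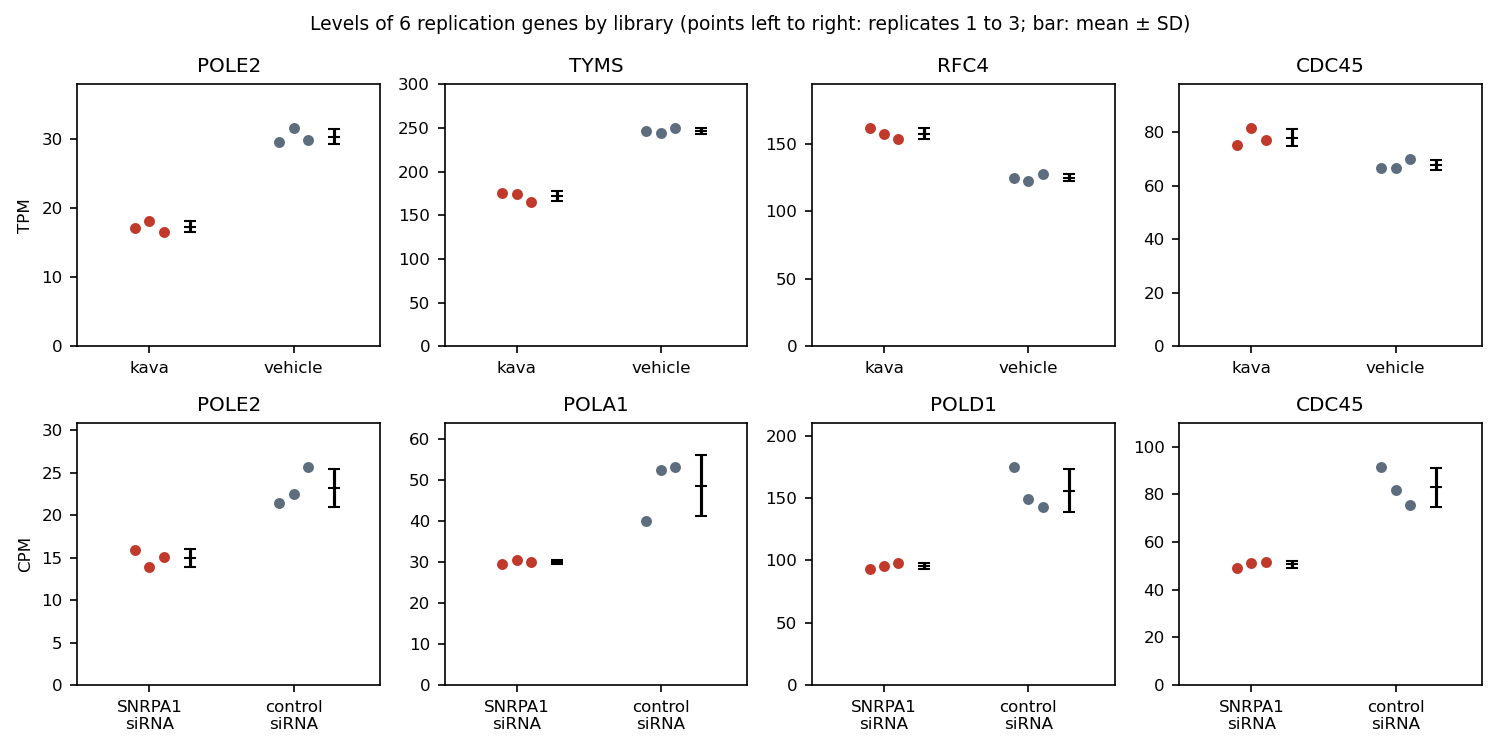
Level of 6 of the genes in each library, in TPM for kava and vehicle (upper row) and in CPM for SNRPA1 siRNA and control siRNA (lower row); points are libraries, bars the mean ± SD of 3. POLE2 is lower with kava than with vehicle and lower with SNRPA1 siRNA than with control siRNA, while CDC45 is higher with kava and lower with SNRPA1 siRNA.

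The 2 largest falls with kava and all 3 rises lay among neighbours that moved the same way. For each gene, the 10 tested genes on either side along the chromosome were taken, 20 in all where the chromosome end allowed. Around all tested genes with at least 10 such neighbours, the neighbours' median log2 fold change lay between -0.15 and 0.25 from the 5th to the 95th percentile. Around POLE2 (chr14:49643555-49688422) it was -0.35, with 14 of 20 neighbours lower and 0 higher. Around TYMS (chr18:657653-673578), near the end of the short arm, it was -0.39, with 12 of 13 lower. ENOSF1 and TYMSOS, which share exon bases with TYMS, are among these 13 and both were lower, so not all of them are independent of TYMS. Each of the 3 genes that rose had a neighbourhood that rose. Around RFC4 (chr3:186789880-186806482) the median was 0.41, with 13 of 20 higher. Around TK1 (chr17:78174091-78187233) it was 0.40, with 14 of 20 higher, and around CDC45 (chr22:19479457-19520612) it was 0.37, with 14 of 20 higher. None of these 3 neighbourhoods had a gene that fell. POLE2 fell by 0.43 more than the median of its neighbours and TYMS by 0.13 more, whereas RFC4, TK1 and CDC45 were 0.077, 0.11 and 0.17 below theirs. The part of these neighbourhoods in the results was not tested.

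**Figure D3:**
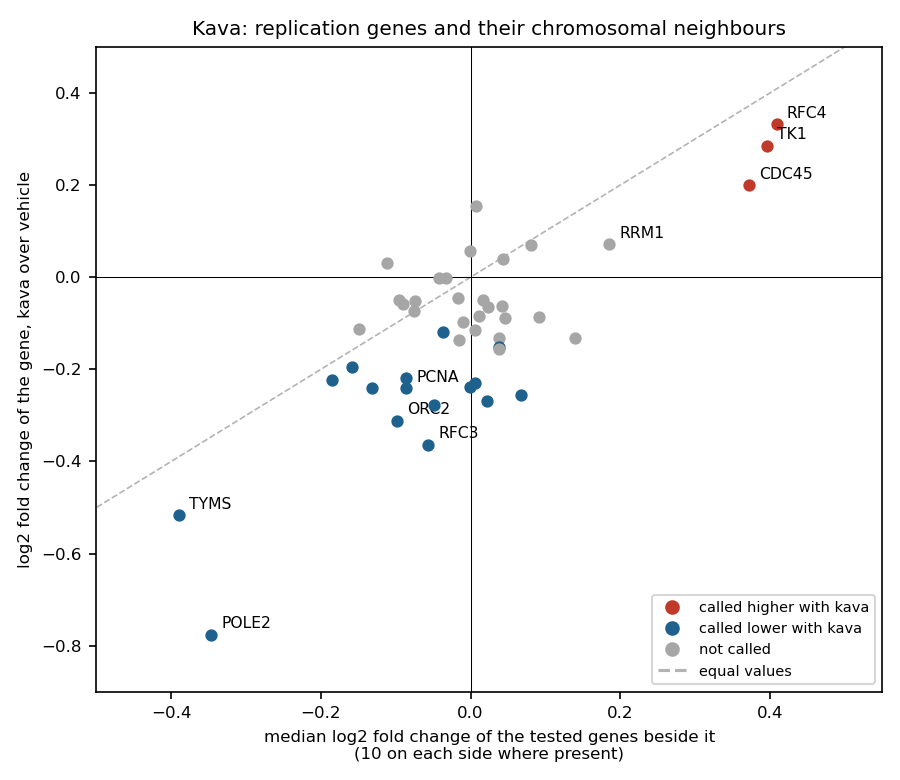
Log2 fold change of each gene with kava over vehicle (vertical axis) against the median of the tested genes beside it (horizontal axis); red and blue are called higher and lower, grey not called. RFC4, TK1 and CDC45 lie at neighbour medians of 0.37 to 0.41, POLE2 and TYMS at -0.35 and -0.39, and RFC3 near -0.056.

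Around the other falling genes the neighbours' median lay on either side of 0. Around RFC3 the neighbours' median was -0.056, with 3 of 20 lower and 3 higher. Around PRIM1, GINS1, CDC6 and MCM5 the median was 0.022, 0.067, -9.15e-06 and 0.0061, so these genes fell where their neighbours on balance did not. Around PCNA, ORC2 and MCM10 it was -0.087, -0.099 and -0.13. MCM6 and ORC4, on chromosome 2, had neighbour medians of -0.16 and -0.19. Both were under the 5th percentile of all genes and close to the genes' own changes of -0.19 and -0.22. Their windows overlap and each gene is a neighbour of the other, so these medians are not independent.

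Genes that work beside the replication machinery, from lists chosen with earlier results of these data known, for the most part did not pass with kava. Their counts are read against 15.6% lower and 16.3% higher of all tested genes, whose median log2 fold change was -0.014. Neighbours along the chromosome were looked up for the replication genes above, but not for the genes of these lists or those that follow. The part of chromosome neighbourhoods in the list changes was not tested. Of 15 genes that control licensing and firing, 4 fell and 1 rose (median log2 fold change -0.089). WDHD1, which ties polymerase alpha to the helicase, fell by 0.60 to 24.9 ± 0.899 TPM with kava, against 38.3 ± 1.34 TPM with vehicle (limma adjusted p = 0.000139). CDC7, the kinase that fires origins, fell by 0.27 and the checkpoint scaffold TOPBP1 rose by 0.27. Of 17 genes of fork stability and unloading, 4 fell and 1 rose (median -0.16), among them TIPIN of the fork protection complex (-0.45, limma adjusted p = 0.00352). Of 11 genes that handle chromatin behind the fork, 4 fell (median -0.058), led by SUPT16H of the histone chaperone FACT (-0.28).

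Of 23 further nucleotide enzymes and carriers, 5 fell and 2 rose with kava (median -0.090). IMPDH2, the rate-limiting enzyme of guanine nucleotide synthesis, fell to 213 ± 4.46 TPM with kava, against 328 ± 8.14 TPM with vehicle (log2 fold change -0.62, limma adjusted p = 2.8e-05). The nucleoside carrier SLC29A1 fell by 0.37 and CAD, which starts pyrimidine synthesis, by 0.30. Of 24 G1/S regulators, 9 fell and 3 rose (median -0.11). Cyclin D1, CCND1, rose to 65.6 ± 2.75 TPM with kava, against 28.9 ± 1.71 TPM with vehicle (1.16, limma adjusted p = 1.59e-05), and CCND3 rose by 0.53. CDK6 fell by 0.48 and the CDK inhibitor CDKN1A by 0.46. E2F1 rose to 59.6 ± 2.49 TPM with kava, against 46.5 ± 0.982 TPM with vehicle (0.35, limma adjusted p = 0.00108). E2F3 fell by 0.15 (limma adjusted p = 0.0444), and E2F2, E2F4, E2F6, E2F7 and E2F8 did not pass. Of 20 mitosis genes, 6 fell and 1 rose (median -0.082), led by the kinetochore gene NDC80 (-0.65). Whether NDC80 and the other named list genes moved with the genes beside them on the chromosome was not tested. The proliferation marker MKI67 had 98.8 ± 8.32 TPM with kava and 87.0 ± 2.15 TPM with vehicle (limma adjusted p = 0.061).

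In the knockdown experiment, SNRPA1 had 21.4, 21.0 and 23.8 CPM in SNRPA1 siRNA libraries, against 67.6, 58.9 and 60.2 CPM in control siRNA libraries (log2 fold change -1.50 ± 0.098, edgeR adjusted p = 0.00495). CPM here is reads per 1000000 reads of tested genes after TMM scaling, from 55003534 to 65385258 counted reads per library. Control siRNA replicate 1 stood apart from the other controls. Its counts differed from those of replicates 2 and 3 with a chi-square of 139 and 102 per degree of freedom, against 17.8 between replicates 2 and 3 and 13.9 to 27.4 between SNRPA1 siRNA libraries. Mitochondrial mRNAs summed to 69790 CPM there and to 60560 and 61720 CPM in the other controls, against 66220, 72610 and 75450 CPM in SNRPA1 siRNA libraries. Among the 45 genes it lay above both other controls in 17, below both in 25 and between them in 3. Counts of called genes are therefore also given without this library, and so are single genes whose call it changed.

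With SNRPA1 siRNA, catalytic polymerase subunits, CDC45 and LIG1 were lower, while ORC6, ORC1 and RPA2 were higher. Of the 45 genes, 10 fell, 3 rose and 32 did not pass (edgeR quasi-likelihood test, adjusted p under 0.05 over 13772 genes). Of all tested genes 12.2% changed, 7.29% lower and 4.89% higher. The median log2 fold change was -0.13 over the 45 genes and -0.0032 over all tested genes. The groups did not overlap in 23 of the 45 (51.1%), 17 below and 6 above, against 38.7% of all tested genes, 20.4% below and 18.3% above. Without control siRNA replicate 1, 19 fell and 8 rose, against a background of 33.1% (16.9% lower and 16.2% higher). All 13 were called there in the same direction, and 14 more were called. With any 1 of SNRPA1 siRNA replicates 1, 2 and 3 left out, 0 of the 45 genes and 0 of all genes were called (edgeR). At an unadjusted p under 0.05 there were then 5, 3 and 6 higher and 11, 11 and 10 lower among the 45. Without control siRNA replicate 3 again 0 of the 45 and 15 of all genes were called (6 higher, 9 lower), with 5 of the 45 higher and 11 lower at an unadjusted p under 0.05. For these fits the share of all tested genes at an unadjusted p is not given here. The unadjusted counts are therefore not read as a result about the 45. Without control siRNA replicate 2, 1 of the 45 was higher and 8 were lower. The share of all genes called in that fit is also not given here, so this count too is not read as a result about the 45. Summed over the 45 genes, SNRPA1 siRNA libraries held 5925, 6088 and 6164 CPM, against 6748, 6588 and 6631 CPM in control siRNA libraries, without overlap.

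**Figure D4:**
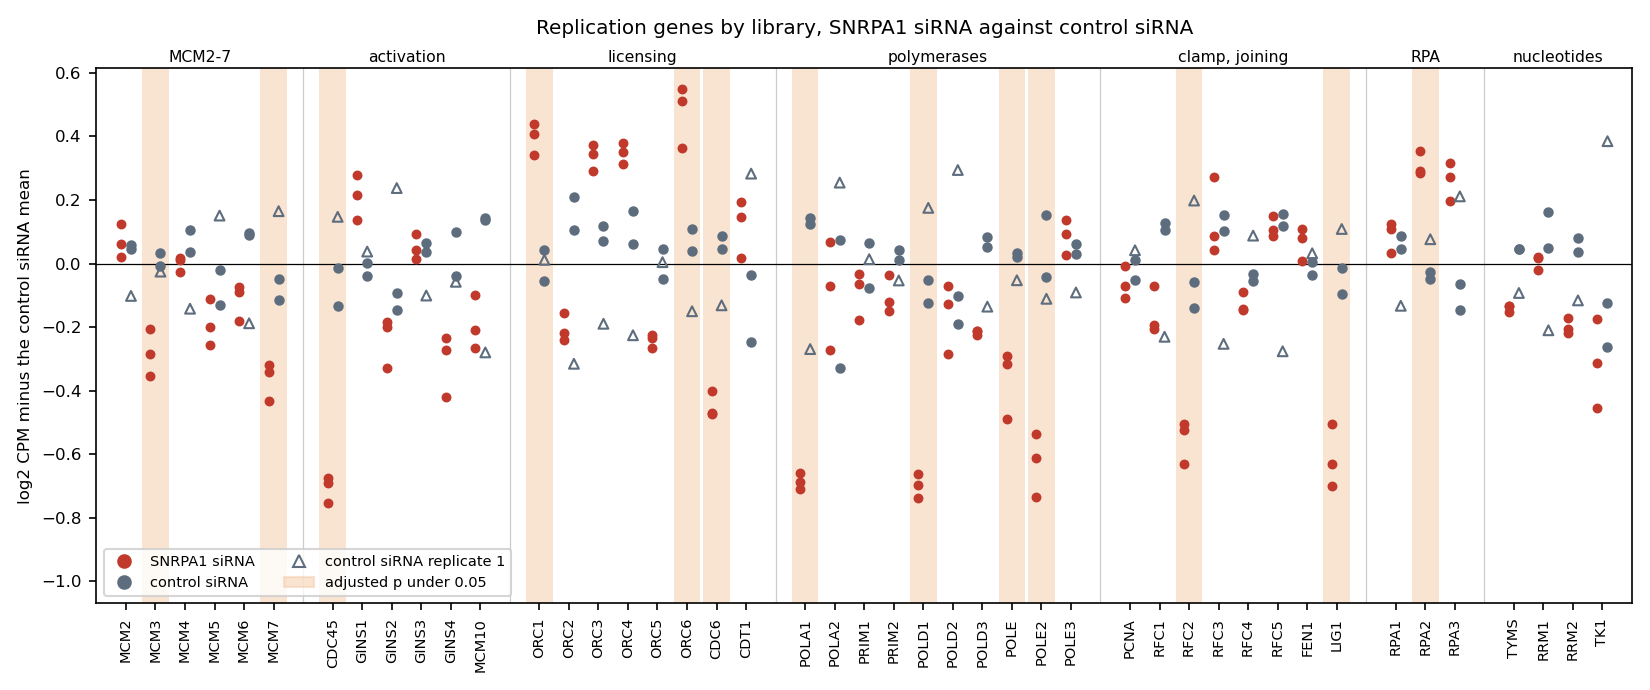
Each gene's value in every SNRPA1 siRNA library (red) and control siRNA library (grey), as log2 CPM minus the control mean, by role; open triangles are control siRNA replicate 1 and shading marks edgeR adjusted p under 0.05. CDC45, POLA1, POLD1, POLE2 and LIG1 lie lowest, and ORC6 and ORC1 highest.

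The catalytic subunits of all 3 replicative polymerases fell. POLD1, of polymerase delta, had 93.2, 95.8 and 98.1 CPM in SNRPA1 siRNA libraries, against 175, 149.7 and 143 CPM in control siRNA libraries (log2 fold change -0.70 ± 0.095, edgeR adjusted p = 0.0111). POLA1, of polymerase alpha, had 29.5, 30.6 and 30.0 CPM with SNRPA1 siRNA and 40.1, 52.7 and 53.3 CPM with control siRNA (-0.70 ± 0.12, edgeR adjusted p = 0.0201). For both, every SNRPA1 siRNA value lay below every control value, although control replicate 1 was the highest control for POLD1 and the lowest for POLA1. Without that control the changes were -0.61 and -0.82. POLE, of polymerase epsilon, fell less, to 76.1, 87.4 and 85.9 CPM with SNRPA1 siRNA, against 103, 109 and 109 CPM with control siRNA (-0.36 ± 0.083, edgeR adjusted p = 0.0348, and 0.0727 without control siRNA replicate 2).

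POLE2 fell here too, to 15.9, 13.9 and 15.1 CPM with SNRPA1 siRNA, against 21.4, 22.4 and 25.7 CPM with control siRNA (log2 fold change -0.63 ± 0.11, edgeR adjusted p = 0.021). The groups did not overlap. The accessory subunits POLA2, POLD2 and POLE3 and the primase subunits PRIM1 and PRIM2 had changes between -0.17 and 0.085, with overlapping groups, and none passed with or without control siRNA replicate 1. POLD3 had a change of -0.22 (edgeR adjusted p = 0.144) and passed without that library (-0.28, edgeR adjusted p = 0.00794).

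CDC45 had the largest fall of the 45 genes with SNRPA1 siRNA. It stood at 49.0, 51.3 and 51.7 CPM, against 91.5, 81.9 and 75.4 CPM with control siRNA (log2 fold change -0.71 ± 0.093, edgeR adjusted p = 0.0106). The lowest control lay well above the highest SNRPA1 siRNA library, and the change was -0.63 without control replicate 1. Its partners GINS1, GINS2, GINS3 and GINS4 had changes between -0.31 and 0.21 and did not pass with all libraries. Without control replicate 1, GINS4 was lower (-0.34, edgeR adjusted p = 0.0135) and GINS1 higher (0.23, edgeR adjusted p = 0.0242), so 2 subunits of 1 complex lay on opposite sides. MCM10 had a change of -0.20 (edgeR adjusted p = 0.334), and was lower without that library (-0.33, edgeR adjusted p = 0.00834).

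Of the MCM2-7 ring, MCM7 and MCM3 fell. MCM7 had 420.1, 447 and 455 CPM with SNRPA1 siRNA and 635, 523 and 548 CPM with control siRNA (log2 fold change -0.37 ± 0.089, edgeR adjusted p = 0.042). MCM3 had 214, 236 and 224 CPM with SNRPA1 siRNA and 268, 271 and 279 CPM with control siRNA (-0.28 ± 0.070, edgeR adjusted p = 0.0449, and 0.0828 without control siRNA replicate 2). Neither overlapped between groups. MCM2, MCM4, MCM5 and MCM6 had changes of 0.069, -0.0029, -0.19 and -0.12 and did not pass. Without control siRNA replicate 1, which was the lowest control for MCM6, that gene was lower (-0.21, edgeR adjusted p = 0.0225) and its groups did not overlap.

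The licensing factors did not move together. ORC6 rose to 92.0, 89.5 and 80.8 CPM with SNRPA1 siRNA, against 56.6, 67.8 and 64.6 CPM with control siRNA (log2 fold change 0.47 ± 0.098, edgeR adjusted p = 0.0284). ORC1, an ATPase subunit, rose to 60.8, 65.04 and 63.6 CPM, against 48.3, 46.2 and 49.4 CPM with control siRNA (0.40 ± 0.076, edgeR adjusted p = 0.023, and 0.0543 without control siRNA replicate 2). Both had SNRPA1 siRNA values above all control values. CDC6, the loader that acts on ORC, fell to 89.1, 89.3 and 93.7 CPM, against 113, 128 and 131 CPM with control siRNA (-0.45 ± 0.084, edgeR adjusted p = 0.0221). Without control siRNA replicate 1 all 8 licensing genes passed. ORC1, ORC3, ORC4, ORC6 and CDT1 were then higher and ORC2, ORC5 and CDC6 lower. The 6 ORC subunits thus lay on both sides of the control level.

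Of the joining and loading genes, LIG1 and RFC2 fell. LIG1, the ligase that seals Okazaki fragments, had 87.3, 91.7 and 100.0 CPM with SNRPA1 siRNA and 153, 133 and 141 CPM with control siRNA (log2 fold change -0.61 ± 0.090, edgeR adjusted p = 0.0133). RFC2 had 67.0, 73.0 and 72.1 CPM with SNRPA1 siRNA and 119, 94.0 and 99.6 CPM with control siRNA (-0.56 ± 0.11, edgeR adjusted p = 0.0224). In both genes the groups stood clear of each other. PCNA, at 445 ± 15.5 CPM with SNRPA1 siRNA and 464 ± 15.5 CPM with control siRNA, did not pass (edgeR adjusted p = 0.567), nor did RFC3 and RFC4, with changes of 0.13 and -0.13. RFC1 had a change of -0.16 (edgeR adjusted p = 0.369) and was lower without control siRNA replicate 1 (-0.27, edgeR adjusted p = 0.0138).

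RPA2 rose to 131, 131 and 137 CPM with SNRPA1 siRNA, against 113, 104 and 105 CPM with control siRNA (log2 fold change 0.31 ± 0.073, edgeR adjusted p = 0.0383, and 0.0885 without control siRNA replicate 2). The groups did not overlap. RPA3 had a change of 0.25 that did not pass with all libraries and passed without control replicate 1 (0.37, edgeR adjusted p = 0.00719). The 4 nucleotide enzymes had changes between -0.34 and -0.0034 and did not pass with all libraries. TK1 was at 276, 305 and 335 CPM with SNRPA1 siRNA, against 495, 316 and 348 CPM with control siRNA, and its high control was replicate 1, at 1.49 times the mean of the other controls. TYMS and RRM2 passed as lower without that library (-0.19 and -0.26, edgeR adjusted p = 0.0184 and 0.00504). ENOSF1, which shares exon bases with TYMS, fell with all libraries. It had 47.7 CPM with SNRPA1 siRNA and 68.5 CPM with control siRNA (-0.52, edgeR adjusted p = 0.0219). Here too, reads from the shared bases cannot be assigned to either gene without strand.

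Among the replication genes, those that fell with SNRPA1 siRNA had a higher median exon count than the rest, but the counts overlapped. Genes that fell had 11 (RFC2) to 49 (POLE) exons, and those that did not pass had 2 (FEN1) to 25 (RFC1). In the GENCODE 29 transcript with the longest coding sequence, the median was 19.5 exons over the 10 genes that fell, 11.5 over the 32 that did not pass and 8 over the 3 that rose. The median without control siRNA replicate 1 was 17 over the 19 that fell, 11 over the 18 that did not pass and 9 over the 8 that rose. The same medians with kava were 13.5 over the 16 that fell, 15 over the 26 that did not pass and 11 over the 3 that rose. No test was made of these medians, and longer transcripts also gather more reads. Exon medians over all tested genes are not given here, so these medians have no background. The part of exon number or splicing in these falls was not tested. E2F-type sites lay in 7 of the 10 promoter windows of genes that fell with SNRPA1 siRNA, in 0 of 2 matched windows of genes that rose and in 11 of 27 of the others. By the calls without control siRNA replicate 1 they lay in 9 of 17, 3 of 6 and 6 of 16. With kava they lay in 8 of 14 windows of genes that fell, 0 of 3 of genes that rose and 10 of 22 of the others. These counts depend on the strings searched. CDC45, which rose with kava, and MCM10, which fell, were counted as without a site, although their windows hold TTTGGCGG.

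Among genes of the fork and of chromatin behind it, TIPIN, CLSPN and DNMT1 were lower with SNRPA1 siRNA. List counts are read against 7.29% lower and 4.89% higher of all tested genes, where falls also outnumbered rises. Of 17 genes of fork stability and unloading, 4 fell and all 17 values were negative (median log2 fold change -0.32). Over all tested genes, 6935 of 13772 values were negative. With control siRNA replicate 1 left out, 9 fell and 16 values were negative. Of all tested genes, 16.9% were then lower and 16.2% higher, and 7050 of 13729 values were negative. TIPIN fell by 0.71 (edgeR adjusted p = 0.0151), the checkpoint mediator CLSPN by 0.58, and CHTF18 and CHTF8 of an alternative clamp loader by 0.56 and 0.47. Of 11 chromatin genes, 4 fell and 1 rose (median -0.20), and without that library 6 fell and 2 rose. The maintenance methyltransferase DNMT1 fell to 257 ± 8.22 CPM with SNRPA1 siRNA, against 356 ± 38.3 CPM with control siRNA (-0.47, edgeR adjusted p = 0.0255), HELLS fell by 0.43, and the histone chaperone ASF1A rose by 0.57. Of 23 further nucleotide genes, 3 fell, CTPS1, CAD and SHMT1 (-0.69, -0.60 and -0.48, median -0.12), and without control siRNA replicate 1, 7 fell and 2 rose. The 15 licensing and firing genes had a median of 0.0077, and without control siRNA replicate 1, 2 were higher and 6 lower. Of 24 G1/S regulators CCNE1 fell (-0.63) and E2F6 rose (0.49), and of 20 mitosis genes TTK alone passed, higher (0.46). Leaving out control siRNA replicate 1 gave 4 G1/S regulators higher and 5 lower, and 2 mitosis genes higher and 4 lower. Of 13 mitochondrially encoded mRNAs, 1 rose with all libraries and 10 without control siRNA replicate 1. The part of that library and of mitochondrial mRNA in these results was not tested.

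The comparisons share no library and were normalised apart, so their values were set side by side and not tested against each other. Of the 45 genes, 5 were called in both, 14 with kava alone, 8 with SNRPA1 siRNA alone and 18 in neither. POLE2, CDC6 and MCM7 were lower in both. They made up 18.8% of the 16 genes lower with kava and 30% of the 10 lower with SNRPA1 siRNA, where over all genes tested in both the 170 shared falls made up 8.04% of the kava falls and 17.4% of the SNRPA1 siRNA falls. Those 170 were 1.34% of the 12704 genes tested in both. The 45 genes fell more often in each comparison alone, 16 with kava (15.6% of all tested genes) and 10 with SNRPA1 siRNA (7.29%). The larger shares of shared falls are therefore not read as a link between the comparisons. The shared falls numbered 8 without control siRNA replicate 1, with MCM6, MCM10, ORC2, ORC5 and TYMS added. They made up 50% of the kava falls and 42.1% of the 19 SNRPA1 siRNA falls, against 21% and 19.5% over all genes tested in both, where shared falls were then 3.5% of 12668 genes. The same limit holds here, as 19 of the 45 were lower in that fit, against 16.9% of all tested genes. CDC45 was higher with kava (0.20) and lower with SNRPA1 siRNA (-0.71), and RPA2 was lower with kava (-0.22) and higher with SNRPA1 siRNA (0.31). Over all genes tested in both, 1.34% were higher with kava and lower with SNRPA1 siRNA, and 0.795% the reverse. GINS1 and ORC4 also were lower with kava and higher with SNRPA1 siRNA once control siRNA replicate 1 was left out (2.75% of all genes), and CDC45 remained the 1 gene of the 45 that was higher with kava and lower with SNRPA1 siRNA (2.91% of all genes). The catalytic polymerase subunits POLA1, POLD1 and POLE, which fell with SNRPA1 siRNA, had changes of -0.13, -0.086 and -0.0023 with kava and did not pass. PCNA, RFC3 and TYMS, which fell with kava, had changes of -0.062, 0.13 and -0.14 with SNRPA1 siRNA. Across the 45 genes the changes had a Pearson r of 0.024 and a Spearman rho of -0.044, given as a description across genes, which are not independent replicates. SNRPA1 was 0.845 of its vehicle level with kava and 0.354 of its control level with the siRNA.

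**Figure D5:**
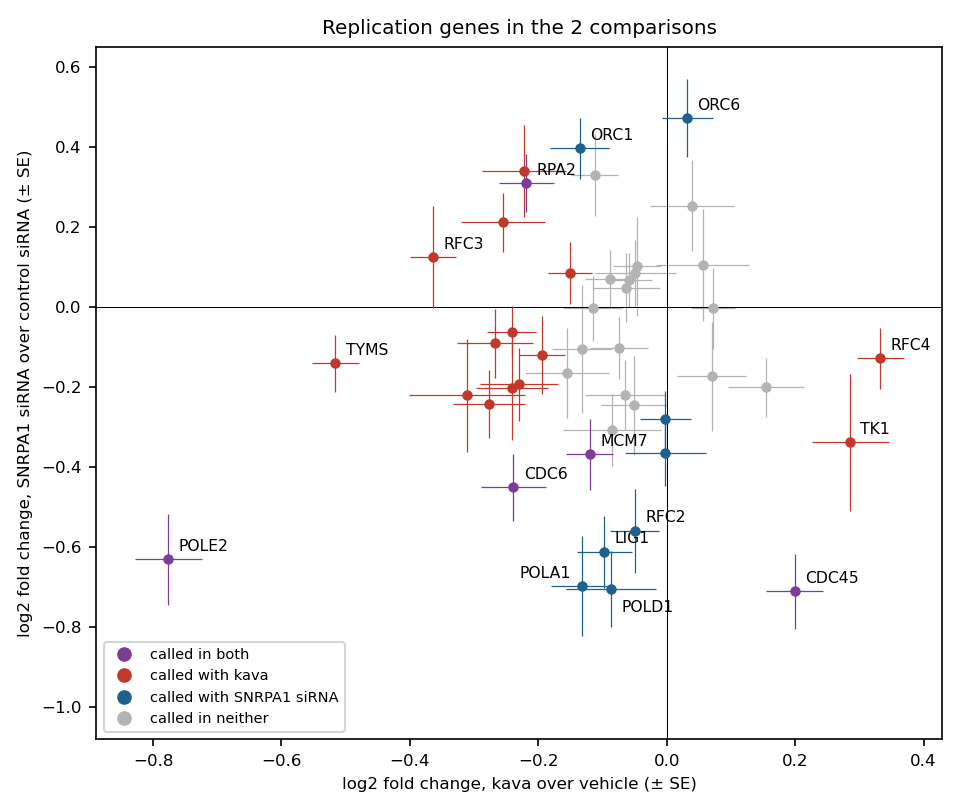
Log2 fold change ± SE of each gene with kava over vehicle (horizontal) and with SNRPA1 siRNA over control siRNA (vertical), coloured by which comparison called it. POLE2 and CDC6 lie low on both axes, CDC45 lies right of 0 and low, and RPA2 left of 0 and high.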

How the data were processed

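Kava and vehicle values were TPM as deposited, so their depth is unknown. The siRNA table held raw counts and FPKM per the file headers. Per the submitters' processing notes, cutadapt 1.9, HISAT2 2.0.4, StringTie 1.3.4d and DESeq2 were used on hg38, without saying for which table; the name of the TPM table points to salmon, a difference not resolved here. Kava was tested by limma 3.58.1 with a trend on log2(TPM + 1), which understates changes of low genes, where the mean level was 1 TPM or more. The knockdown was tested by edgeR 4.0.16 (quasi-likelihood, TMM) where it was 1 CPM or more, in R 4.3.3. Tests were two-sided, adjusted by Benjamini-Hochberg over all tested genes, and run on simulated data first. The authors' FPKM values, scaled for length, served an alternative test.

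The 45 genes and all lists were chosen with earlier results of these data known. Per-library values are given for SNRPA1, for up to 12 called genes with the largest change and no overlap in each comparison, and for the most abundant called gene of each role; MCM3 with SNRPA1 siRNA was added after its values were seen. From other lists, up to 4 called genes were named. MKI67, the E2F genes and ENOSF1 were added after their values were seen. Neighbours, exon counts and promoters were also looked up after that. Gene positions came from the siRNA table (hg38) and exons from GENCODE 29. Same-numbered libraries did not deviate together, although 3 libraries per group cannot settle whether they were paired.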

Additional observations from a re-analysis of the deposited data

How the results depend on the processing

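With kava, the direction of all 19 called genes held in 12 alternative settings, and 189 of 228 values stayed past the threshold. CDC6, MCM6, ORC5, PCNA, POLE2, PRIM1, RFC3, RFC4, RPA2, TK1 and TYMS passed in all 12, whereas MCM7 passed in 4, ORC4 in 3 and ORC2 in 5. Leaving out 1 library gave 2 to 4 genes higher and 10 to 16 lower of the 45 (10 without vehicle replicate 3), and 1400 to 2099 lower of all genes (1400 without vehicle replicate 1). Of values not past the threshold, 6 passed and 11 changed sign with kava, and 37 and 22 with SNRPA1 siRNA.

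With SNRPA1 siRNA, the 13 called genes kept their direction in 14 settings, and 104 of 182 values stayed past the threshold. Leaving out 1 library gave 0 to 8 higher and 0 to 19 lower of the 45, and 0 to 2222 higher and 0 to 2324 lower of all genes. SNRPA1 then lay between -1.56 and -1.44, with an edgeR adjusted p of 0.0501, 0.0558 and 0.0519 without SNRPA1 siRNA replicates 1, 2 and 3. DESeq2 called 1427 genes higher and 1768 lower, with 6 and 12 of the 45. Without a filter on low counts, which tests 30764 genes, 258 and 411 genes and 1 and 6 of the 45 were called. Limma on FPKM called 394 genes higher, and the number lower is not given here. Of the 13 called genes, 12 stayed past the threshold in that setting and 1 did not. Limma-voom with library weights, chosen after control siRNA replicate 1 was seen, called 3384 and 3674 genes and 9 and 21 of the 45. The cause of these differences was not tested, beyond the number of genes tested without a filter.

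The labels do not say whether equal replicate numbers pair libraries. Deviations of same-numbered libraries correlated at -0.016, -0.11 and 0.093 for kava and -0.30, 0.070 and -0.11 for the knockdown. Differently numbered libraries of the knockdown correlated at -0.19 to 0.26, so these values cannot settle whether libraries were paired. With the replicate number as a block, edgeR called 0 genes higher and 0 lower in the knockdown, 0 and 0 of the 45 (1207 and 1712 genes, and 5 and 11 of the 45, at an unadjusted p under 0.05), and SNRPA1 was at -1.50 (edgeR adjusted p = 0.118). For kava the block left 3 higher and 14 lower of the 45. Each group held 3 libraries, and the TPM table gives no depth, so no counting error can be given for it.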

Other observations

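Levels per length were compared within each table. In TPM, PCNA was the most abundant of the 45 genes (505 ± 20.0 TPM with kava, 597 ± 9.13 TPM with vehicle), and POLE2, GINS2 and CDT1 were the lowest with kava (17.3 ± 0.781, 19.5 ± 0.850 and 21.1 ± 1.79 TPM). POLE2 ranked 45 of 45 with kava and 40 of 45 with vehicle, whereas GINS2 ranked 44 in both. In FPKM, POLA1 was the lowest with SNRPA1 siRNA and with control siRNA (1.71 ± 0.0246 and 2.90 ± 0.544 FPKM). TPM and FPKM values come from tables made apart and are not compared with each other.

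The 45 genes lie on 20 chromosomes. With SNRPA1 siRNA their neighbours' median log2 fold changes lay between -0.34 and 0.21, and around all tested genes between -0.25 and 0.17 from the 5th to the 95th percentile. POLD1 on chromosome 19 had the lowest, at -0.34, with 3 of 20 neighbours lower and 1 higher, and fell by 0.37 more than that median.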
